A study of Mus musculus with 30 samples.

Results

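The exons described here are cassette exons of mouse neurons that are at least 52 nt long and whose length is not a multiple of 3, so that including or skipping one moves the downstream codons into another reading frame. They were taken by length alone from the cassette events of the 4 deposited splicing tables of the series, with 1 entry per distinct exon. These tables list only events that the authors called different, at an FDR of at most 0.05 and a difference of at least 0.1. Of 1730 distinct cassette exons in these tables, 699 (40.4%) met the rule, another 689 were as long but a multiple of 3, and 342 were shorter. The 699 exons carried 489 gene labels, 10 had no label, and they fell into 542 regions, because 274 of them overlapped another exon of the set. Lengths ran from 52 to 9955 nt with a median of 116 nt, and 605 exons were no longer than 200 nt. Division by 3 left a remainder of 1 for 354 exons and of 2 for 345.

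The tables come from 18 of the 30 samples of the series, 3 in each of 6 groups, all C57BL/6J mice and all with ribosomal RNA removed. Control (Wild-type_Emx1-Cre) and conditional knockout (Nova2-cKO_Emx1-Cre, here cKO) cells were sorted from cortex at embryonic day 18.5, as were Wild-type_Gad2-Cre and Nova2-cKO_Gad2-Cre cells. The third pair, Wild-type_Pcp2-Cre and Nova2-cKO_Pcp2-Cre, was dissected Purkinje layer of the cerebellum at postnatal day 28. The order control, then cKO, is read from the names of the cortical comparisons. Emx1-Cre is taken here to mark excitatory cortical neurons and their progenitors, Gad2-Cre inhibitory neurons and Pcp2-Cre Purkinje cells, and all groups carry a Cre driver. Separate animals, pools or repeated libraries are not told apart by the labels, so the authors' FDR may measure technical spread. Not analysed here were 12 further samples from 4 groups.

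NOVA2 is an RNA-binding protein of neurons that recognises clusters of YCAY, a CA with a C or T on each side (U for T in RNA), and favours or blocks the use of a nearby exon depending on where it binds. A cassette exon is either joined between its neighbours or left out. When such an exon shifts the frame, one of the forms often meets a stop codon early, and a stop well before the last exon junction marks an RNA for nonsense-mediated decay. Other frame-shifting exons lie near the end of the coding sequence and give the protein another C-terminus, or lie before the start codon and change no codon. Some are used in alternating pairs, which keeps the frame.

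Sequences are shown for 12 exons with large differences, chosen by the rule stated with the processing, to let the frame and the motif be read in the exon itself. They are given 5′ to 3′ on the transcribed strand from GENCODE M21 transcripts, with mm10 positions. In the first 4 the capitals mark the first stop codon met when the exon is read in the frame of an annotated transcript: Ccdc64 at chr5:115651156-115651213 (- strand), Clstn1 at chr4:149641660-149641714 (+ strand), Ank2 at chr3:126928665-126928815 (- strand) and Plekha5 at chr6:140580402-140580535 (+ strand).
Ccdc64: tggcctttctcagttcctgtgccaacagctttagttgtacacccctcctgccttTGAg
Clstn1: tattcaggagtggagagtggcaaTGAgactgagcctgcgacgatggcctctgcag
Ank2: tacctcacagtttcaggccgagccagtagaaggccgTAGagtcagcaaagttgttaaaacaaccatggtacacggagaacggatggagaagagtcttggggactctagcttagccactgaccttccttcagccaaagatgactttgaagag
Plekha5: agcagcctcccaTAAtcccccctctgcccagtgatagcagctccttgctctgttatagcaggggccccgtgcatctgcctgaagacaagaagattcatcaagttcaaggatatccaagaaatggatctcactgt
All 4 share 1 end with a listed cassette exon of another length that is a multiple of 3, so the stop belongs to a splice form that differs from a frame-keeping exon by 1 splice site. In Ccdc64 the stop falls too late to count as early by the rule given below.

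In the other 8 the capitals mark YCAY tetramers, overlaps included: Lmtk3 at chr7:45787646-45787754 (+ strand), Hfm1 at chr5:106920963-106921072 (- strand), Dlg3 at chrX:100808053-100808152 (+ strand), Actl6b at chr5:137554064-137554140 (+ strand), Npr2 at chr4:43643346-43643409 (+ strand), Sh2b1 at chr7:126467950-126468049 (- strand), Smarce1 at chr11:99224970-99225142 (- strand) and Atp11b at chr3:35841030-35841115 (+ strand).
Lmtk3: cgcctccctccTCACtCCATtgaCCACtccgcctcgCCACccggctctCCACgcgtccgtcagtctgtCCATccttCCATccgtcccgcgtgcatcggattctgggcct
Hfm1: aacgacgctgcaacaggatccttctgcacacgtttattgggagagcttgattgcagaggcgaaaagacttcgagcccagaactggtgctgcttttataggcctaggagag
Dlg3: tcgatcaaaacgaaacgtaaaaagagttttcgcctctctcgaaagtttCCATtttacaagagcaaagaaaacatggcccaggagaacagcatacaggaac
Actl6b: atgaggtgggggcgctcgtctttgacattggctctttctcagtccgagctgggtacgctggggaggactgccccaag
Npr2: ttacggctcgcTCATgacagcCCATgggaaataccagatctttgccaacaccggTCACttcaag
Sh2b1: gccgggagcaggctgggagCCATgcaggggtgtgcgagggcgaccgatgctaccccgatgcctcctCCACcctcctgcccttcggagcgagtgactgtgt
Smarce1: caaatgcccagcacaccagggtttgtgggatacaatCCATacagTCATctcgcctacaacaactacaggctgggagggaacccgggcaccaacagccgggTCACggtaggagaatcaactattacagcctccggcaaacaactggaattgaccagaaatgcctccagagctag
Atp11b: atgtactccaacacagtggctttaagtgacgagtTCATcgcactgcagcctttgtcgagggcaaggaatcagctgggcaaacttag
The Lmtk3 exon held 7 of these tetramers in 109 nt, and Npr2 and Smarce1 held 3 each. Sh2b1 held 2, and Dlg3 and Atp11b held 1 each. Hfm1 and Actl6b, both lower in cKO, held none. Of the first 4 exons, Plekha5, lower in cKO, and Ank2, higher in cKO, held 3 each. Ccdc64 and Clstn1, both lower in cKO, held 0. Of 1143 cassette exons of 52 nt or longer with a sequence, 78.7% held at least 1 tetramer, so holding one sets no exon apart.

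The working name, exons that shift the reading frame, held for part of the set only. By an exact match of both ends to GENCODE M21, 173 exons (24.7%) were coding, 51 belonged to transcripts annotated for decay, 44 to a 5' UTR, 41 held a start or stop codon, 36 were in non-coding transcripts and 354 (50.6%) were not annotated. With a match of either end, 343 were coding and 76 not annotated. A frame could be read for 390 exons, by building the inclusion and the skipping form on an annotated coding transcript with both flanking exons and calling a stop early when it lay more than 50 nt before the last junction. For 125 exons the place was before or at the start codon, so no frame entered them from upstream, and 1 lay after the stop codon. The 125 can include exons that hold the start codon themselves, and skipping such an exon removes that start. Another 92 had no sequence, 88 no complete coding transcript with both flanks, and 3 could not be read.

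Among the 390 exons that were read, 221 (56.7%) put an early stop in the inclusion form, 90 (23.1%) in the skipping form, 14 (3.59%) in both and 65 (16.7%) in neither. The stop lay inside the exon itself for 155 of the 221. For 40 of the 221 (18.1%) the exon is coding in another annotated transcript. Their early stop holds for the transcript used here and need not hold for others. The counts by reading class below include them. Of 496 longer exons with a length that is a multiple of 3, read in the same way, 48 (9.68%) had an early stop in the inclusion form and 0 in the skipping form. These shares follow from the frame and are given to describe the set. Whether any of these RNAs is decayed was not tested, because the tables hold shares of splice forms and no RNA levels.

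Many exons of the set were not alone at their site. An overlap with a listed cassette exon whose length is a multiple of 3 was found for 232 (33.2%), 204 (29.2%) were also part of a listed tandem event, in which neighbouring exons are used together, and 50 took part in a listed mutually exclusive event. For 98 of the 204 a tandem event had a summed length that is a multiple of 3. One or more of these held for 408 exons (58.4%), and 291 (41.6%) were free of all of them. Of the exons listed for Emx1-Cre, 115 overlapped a frame-keeping exon listed in the same table, and for 64 of these the differences of the overlapping exons were within 0.05 of each other. Clstn1 also has such an overlap, with a gap of 0.120 between the differences and so outside that limit. Its 55-nt exon fell from 0.971 to 0.188, and the 57-nt exon that shares an end with it fell from 0.986 to 0.323 by the authors' levels. Use of the longer and of the shorter form cannot be told apart there from the pooled levels, which is why results are also given for the 291 free exons.

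In the Emx1-Cre table the set held 324 exons, with about as many higher as lower in cKO. The values are inclusion levels, the share of an event's RNA that holds the exon, given by the authors as 1 pooled value per group with an FDR of at most 0.05 and a difference of at least 0.1 for every listed event. 166 exons were higher in cKO and 158 (48.8%) lower, while 52.9% of all 870 cassette exons of the table were lower. At a difference of at least 0.2 the majority turned, with 51.9% of 181 exons lower. The median size of the difference was 0.223 against 0.228 for all cassette exons. Differences of 0.5 or more were listed for 38 exons, where 12.1% of all cassette exons reached that size. In RNA from sorted cells, a change within cells and a change in the mix of cells cannot be told apart.

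The 3 genes with the largest rises in Emx1-Cre cKO were Lmtk3, Glra2 and Dlg3. Glra2, a glycine receptor subunit, gained a 244-nt exon without an exact match in the annotation, rising from 0.000257 to 0.854 with an authors' FDR of 3.04e-63. Lmtk3, a kinase of the lemur family, gained an exon known from a decay transcript, with an FDR of 6.7e-55. The Lmtk3 exon of 109 nt, printed above, cut the reading from 1424 to 204 amino acids when included. Dlg3, a scaffold of glutamate synapses also called SAP102, rose from 0.0256 to 0.865 at a 100-nt exon that leaves 630 of 817 amino acids when added to the annotated form, and this exon was also listed as mutually exclusive with another. Grik2, a kainate receptor subunit, rose from 0.136 to 0.765 at a 139-nt exon that carries its own stop codon near the end of the protein and changes the predicted length from 908 to 893 amino acids. Scn8a, a voltage-gated sodium channel, rose from 0.289 to 0.654 at a 92-nt coding exon. Added between both flanking exons of an annotated transcript, it gives a reading of 237 rather than 1978 amino acids. A use of this exon in place of a neighbour is not covered by that reading. All 5 levels were higher in cKO in the authors' deposited table, and none of the 5 exons overlapped a listed frame-keeping exon.

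Ank2, Npr2 and Smarce1 were also among the 8 largest rises. Ank2, which links membrane proteins to spectrin, rose from 0.257 to 0.959 at its 151-nt exon, and the overlapping 183-nt exon rose from 0.342 to 0.977. Map4, a microtubule-associated protein, rose from 0.422 to 0.993 at a 190-nt coding exon with no overlapping frame-keeping exon, where both forms were read to a late stop, at 933 and 917 amino acids. Sh2b1, an adaptor of receptor kinases, rose from 0.265 to 0.918 at 100 nt, and its forms read 682 amino acids with the exon and 724 without, although this exon overlaps a listed frame-keeping one. Both exons change the C-terminus of the predicted protein. Npr2, a receptor guanylyl cyclase, went from 0.309 to 1 at a 64-nt exon, beside a 75-nt exon that went from 0.513 to 1. Smarce1, a subunit of the BAF chromatin remodelling complex, rose from 0.282 to 0.954 at 173 nt. Its forms with the 173-nt or the longer 422-nt exon read 92 and 77 amino acids, against 376 when skipped, while the overlapping 105-nt exon keeps the frame and rose from 0.423 to 0.976.

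**Figure D1:**
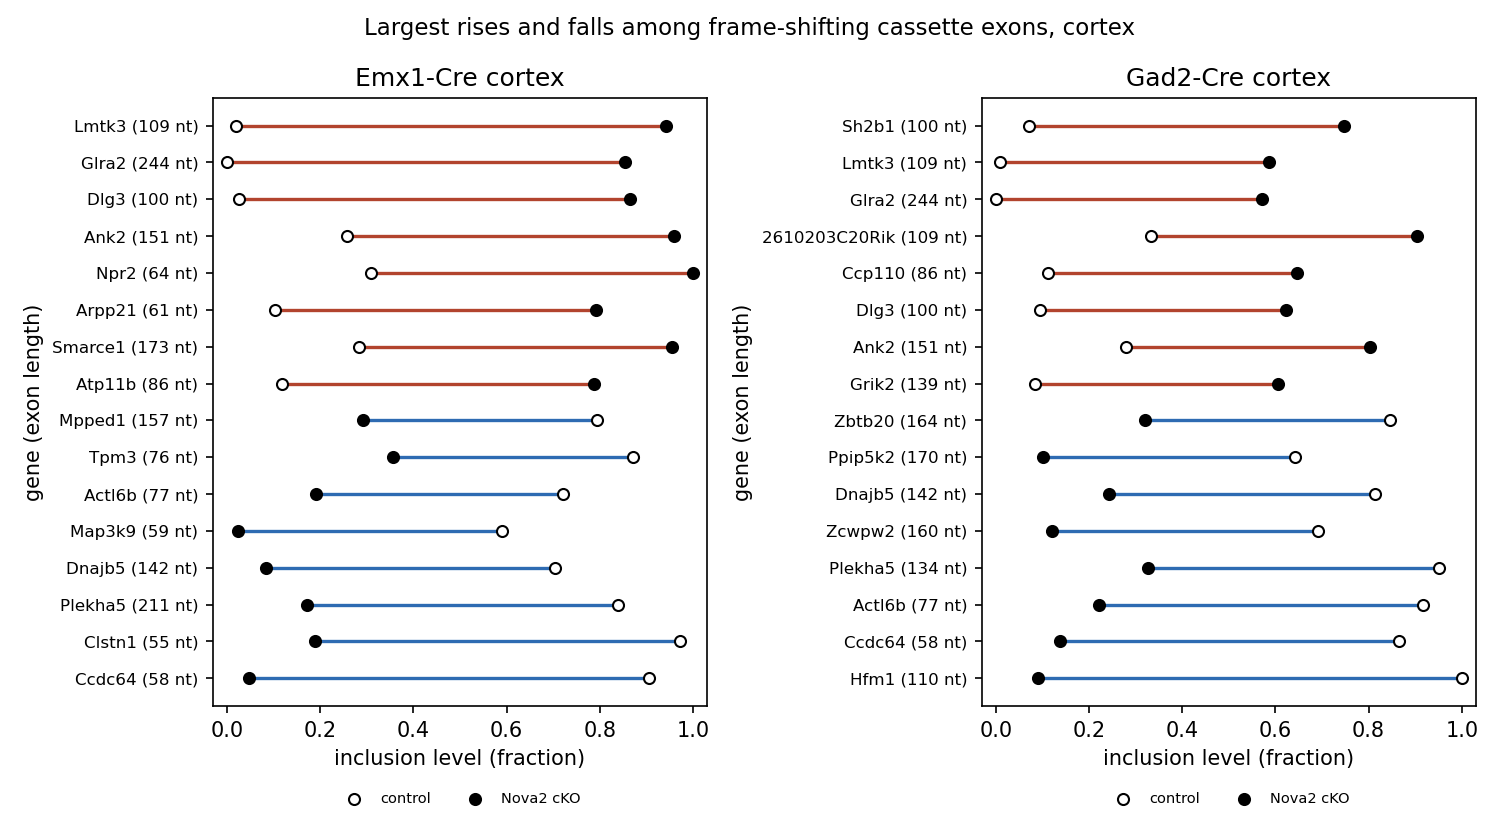
Inclusion level (fraction, x axis) of the exons with the 8 largest rises and the 8 largest falls, 1 per gene, in Emx1-Cre cortex (left) and Gad2-Cre cortex (right), as the authors' pooled values with no error. Open circles are control, filled circles cKO, red lines rises and blue lines falls, and Lmtk3, Glra2, Dlg3 and Ank2 stand among the rises of both panels.

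Only exons with a high control level had room for the largest falls in Emx1-Cre cKO, and others fell from lower levels. Ccdc64, an adaptor of the dynein motor, fell from 0.905 to 0.0479 at 58 nt, and its overlapping 109-nt and 227-nt exons and a 45-nt frame-keeping exon fell alike, the last from 0.904 to 0.0479. Actl6b, the neuronal actin-like subunit of BAF complexes, fell from 0.720 to 0.192 at a 77-nt coding exon and from 0.913 to 0.506 at a 101-nt coding exon of the same transcript. Skipping either one reads 65 amino acids instead of 337 or 345, and both were also part of tandem events with a summed length that is a multiple of 3. Map3k9, a kinase of the stress pathway, fell from 0.590 to 0.0227 at 59 nt. Cadm3, an adhesion molecule, fell from 0.413 to 0.0564 at 218 nt, and Ppip5k2, an inositol phosphate kinase, from 0.398 to 0.0259 at 170 nt. All 3 of these last exons overlap a frame-keeping exon that fell with them, such as the 174-nt exon of Ppip5k2, which went from 0.585 to 0.0383.

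Exons of splicing factors moved in both directions, among them exons whose inclusion brings an early stop, often called poison exons. Tra2b, a splicing activator, rose from 0.333 to 0.603 at a 397-nt exon of a decay transcript whose inclusion form reads 38 of 288 amino acids. Snrnp70, the core protein of the U1 particle, rose from 0.0882 to 0.269 at a 1360-nt exon with a reading of 166 of 448 amino acids, and its 85-nt exon rose from 0.0833 to 0.261. Rbmx, a nuclear RNA-binding protein, fell from 0.590 to 0.372 at a 143-nt exon that could not be read in frame, and Rbm5 fell from 0.907 to 0.672 at a 74-nt coding exon whose skipping leaves 150 of 815 amino acids. Zeb1, a transcription factor, fell from 0.778 to 0.381 at a 137-nt decay exon whose inclusion form reads 20 of 1117 amino acids.

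**Figure D2:**
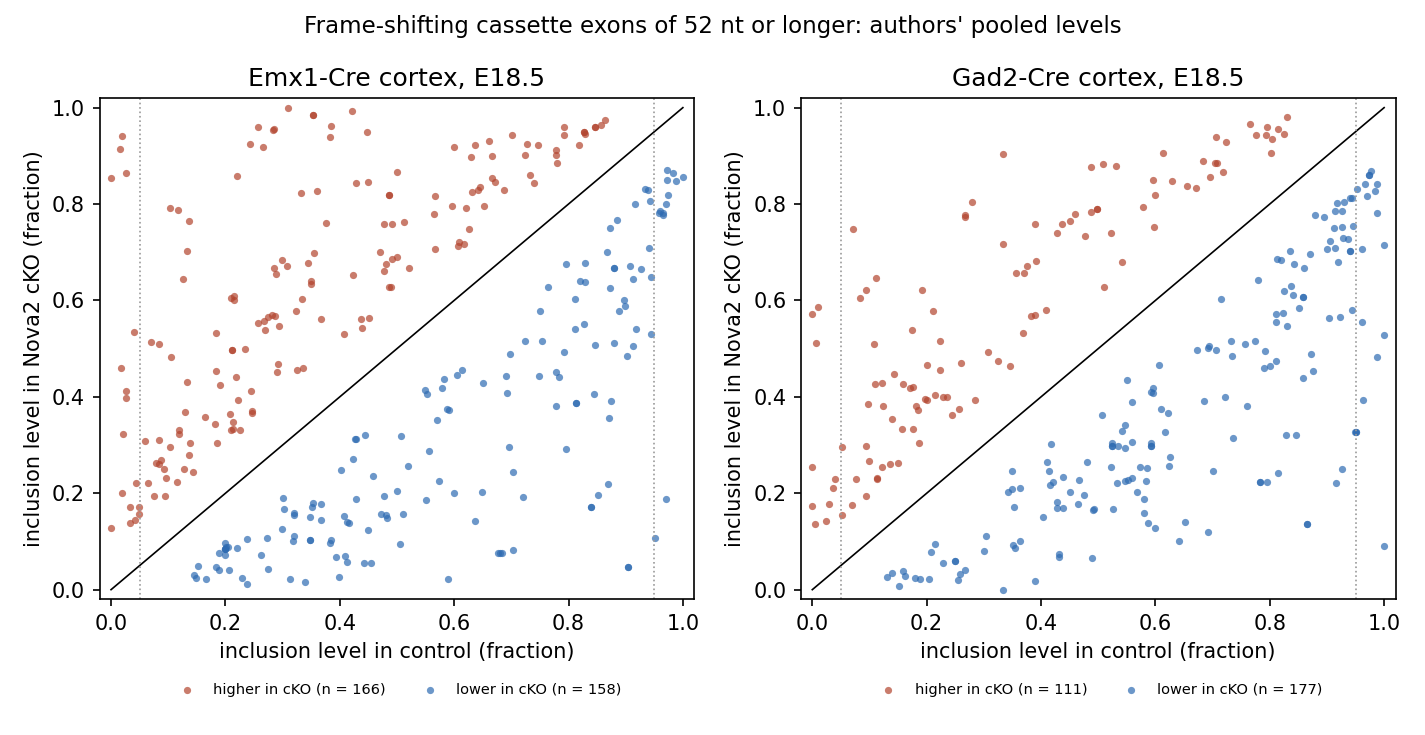
Inclusion level in control (x axis, fraction) against cKO (y axis, fraction) for the 324 exons of the Emx1-Cre table and the 288 of the Gad2-Cre table, 1 point per exon, with dotted lines at control levels of 0.05 and 0.95. Points above the diagonal are higher in cKO, and the empty band along it is the authors' minimum difference of 0.1.

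A control level under 0.05 was listed for 17 exons (5.25%) of the Emx1-Cre table, where 4.71% of all cassette exons had one. Beside Lmtk3, Glra2 and Dlg3 these were exons of Tpm3 (tropomyosin), Dzip1 (cilium assembly), Rab12, Lmbr1, Foxp1 (a transcription factor), Slc1a2 (the glial glutamate transporter), Ubp1, Cars2, Ndrg2, Cacnb4 (a calcium channel subunit) and Map2. Rab12, a small GTPase, rose from 0.0214 to 0.324 at a 190-nt exon whose inclusion form reads 125 of 243 amino acids. Foxp1 rose from 0.0200 to 0.201 at 94 nt with a reading of 547 of 673 amino acids, and Map2 from 0 to 0.128 at 110 nt. All 10 of these exons whose frame could be read, in 8 genes, had the early stop in the inclusion form, beside 110 of the 184 exons read in the table, and the other 7 had no sequence. Not all of the 10 stand alone, since Dlg3 was listed as mutually exclusive. The Dzip1 exons, from 0.0256 to 0.398 and 0.413, overlap a 36-nt frame-keeping exon that rose from 0.0256 to 0.390. A Tpm3 exon rose from 0.0404 to 0.535 while another exon of Tpm3 fell from 0.871 to 0.356. At a coverage of at least 50, the authors' measure of depth at an event, 7 of the 17 remained.

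A control level over 0.95 was listed for 13 Emx1-Cre exons (4.01%, beside 4.48% of all cassette exons). Ccdc64 at 109 nt, from 0.952 to 0.107, and Clstn1 were far ahead of the rest, whose cKO levels ran from 0.776 to 0.870. Among the others, coding exons of Memo1, Ubl4, Stk38 and Sltm put the early stop in the skipping form, as in Stk38, a kinase, which went from 1 to 0.855 with 132 of 465 amino acids left when skipped. Most had little coverage, and 3 of the 13 exons reached 50.

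In the Gad2-Cre table more exons of the set were lower in cKO than higher, as for cassette exons in general. Of 288 exons, 177 (61.5%) were lower and 111 higher, while 63.8% of all 702 cassette exons were lower. The median size of the difference was 0.229 against 0.236 for all, and 30 exons reached 0.5, a size reached by 10.5% of all cassette exons. Median coverage was 46.4, below the 57.5 of the Emx1-Cre table. With 1 exon per gene 60.1% were lower.

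The strongest Gad2-Cre rise of the set was Sh2b1, from 0.0718 to 0.748, followed by Lmtk3 at 109 nt from 0.00931 to 0.586 and Glra2 from 0.000199 to 0.571. Ccp110, a protein that caps centrioles, rose from 0.111 to 0.647 at an 86-nt coding exon. Grik2 rose from 0.0842 to 0.605 and Scn8a from 0.174 to 0.538. Gad1, the enzyme that makes GABA, rose from 0.260 to 0.471 at an 86-nt exon whose inclusion form stops inside the exon and reads 223 of 593 amino acids, with a coverage of 356. This is the stop-containing form of Gad1 known from embryonic brain, and it was not listed in the Emx1-Cre table. Pak3, a kinase downstream of small GTPases, rose from 0.211 to 0.579 at a 95-nt exon before the start codon.

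Among the falls, Hfm1, a helicase gene, went from 1 to 0.0909 at 110 nt with a coverage of 20, the lowest that is listed, so this largest fall rests on few reads. Actl6b fell from 0.917 to 0.221 at 77 nt and from 0.962 to 0.554 at 101 nt. Dnajb5, a chaperone of the Hsp40 family, fell from 0.814 to 0.242 at a 142-nt exon before the start codon, and Ppip5k2 from 0.642 to 0.102. Kcnc2, a voltage-gated potassium channel, fell from 0.390 to 0.0189 at a 104-nt exon that changes the C-terminus, and Grik1, a kainate receptor subunit, from 0.333 to 0.000142 at 83 nt with a coverage of 20, while Grik2 rose. The Grik1 exon overlaps an 87-nt frame-keeping exon that fell from 0.467 to 0.000284. Srrm2, a spliceosome protein, fell from 0.404 to 0.150 at a 95-nt decay exon. Rnps1, a protein of the exon junction complex that takes part in decay, fell from 0.823 to 0.573 at a 122-nt exon in the 5' UTR.

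Control levels under 0.05 were listed for 10 Gad2-Cre exons (3.47%, beside 2.99% of all cassette exons), and 4 of them had a coverage of 50 or more. Foxp1 rose from 1.68e-05 to 0.173, Rab12 from 0.0290 to 0.177 and Map2 from 0.00481 to 0.137, beside Lmtk3, Glra2, Tpm3, Desi2, Adam22 and a 55-nt exon of Dlg3. An early stop in the inclusion form was read for 6 exons, 3 had no sequence, and Adam22, a synaptic receptor for LGI proteins, had none in either form. Levels over 0.95 were listed for 18 exons (6.25%, beside 7.41%), and 3 of them had a coverage of 50 or more. Arpp21, a phosphoprotein of neurons, went from 1 to 0.529 at a 109-nt coding exon whose skipping leaves 302 of 774 amino acids, and Map2k5, a kinase, from 1 to 0.714 at 68 nt.

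Both cortical cKO tables listed 98 exons of the set, in 69 genes, which is 30.2% of those listed for Emx1-Cre and 34.03% of those for Gad2-Cre. The tables share no samples. Compared at the same event, 96 of the 98 (98.0%) moved in the same direction, 35 higher and 61 lower in cKO, and 141 of 141 longer frame-keeping exons did so too. The medians of the size were 0.327 in Emx1-Cre and 0.318 in Gad2-Cre, and the difference was larger in Emx1-Cre for 56 of the 96. Of the exons free of tandem, mutually exclusive and overlapping frame-keeping events, 25 were shared and all 25 moved in the same direction. For an exon with several events the direction can depend on the event. In Emx1-Cre an exon of Slc8a1, counted as lower, changed by -0.373 at the event shared with Gad2-Cre and by 0.518 at another event. In Gad2-Cre the Atp11b exon, counted as higher, changed by 0.172 at the shared event and by -0.21 at another. With the mean of all events of each exon, 96 of the 98 also moved in the same direction.

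The 2 exceptions at the same event were Adgrl3, an adhesion receptor of synapses also known as latrophilin-3, and Zfyve9, an endosomal adaptor of TGF-beta receptors. Adgrl3 at 52 nt rose from 0.566 to 0.706 in Emx1-Cre and fell from 0.838 to 0.630 in Gad2-Cre. Zfyve9 at 85 nt rose from 0.336 to 0.461 and fell from 0.542 to 0.329. Both exons overlap a listed frame-keeping exon. The largest joint rises were those of Lmtk3, Glra2, Dlg3, Sh2b1 and Ank2, and the largest joint falls those of Ccdc64, Plekha5, Dnajb5, Actl6b and Clstn1. Neo1, a receptor for netrin and RGM proteins, was higher at 98 nt in both, from 0.353 to 0.985 and from 0.389 to 0.758.

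**Figure D3:**
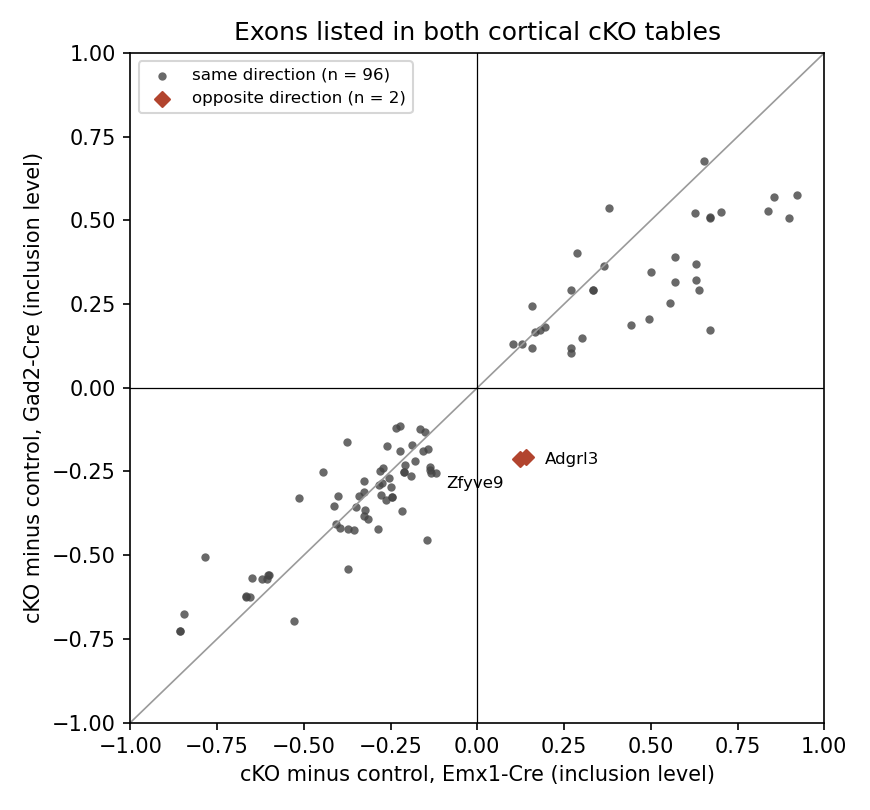
Difference in inclusion level, cKO minus control, in Emx1-Cre (x axis) against Gad2-Cre (y axis) for the 98 exons listed in both tables, 1 point per exon, with the line of equal difference in grey. The 96 points of the same direction lie in the lower left and upper right, and Adgrl3 and Zfyve9, as diamonds, lie in the lower right.

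Directions were then counted by what the exon does to the frame. In Emx1-Cre cKO, exons with the early stop in the inclusion form were higher for 67 (60.9%) and lower for 43 of 110, in 50 and 31 genes, where 47.1% of all cassette exons were higher. Exons with the early stop in the skipping form split 17 to 17, where 52.9% of all cassette exons were lower. In Gad2-Cre cKO 47 (48.96%) of the 96 exons with a stop upon inclusion were higher and 49 lower, where 36.2% of all cassette exons were higher. Those with a stop upon skipping were higher for 16 and lower for 25 (61.0%), where 63.8% of all were lower. Of all exons of the set read in frame, 42.9% of 184 were lower in Emx1-Cre cKO and 55.7% of 167 in Gad2-Cre cKO. Among free exons, those with a stop upon inclusion were higher for 23 and lower for 12 in Emx1-Cre and higher for 18 and lower for 12 in Gad2-Cre, and those with a stop upon skipping were higher for 8 and lower for 9, and higher for 8 and lower for 12. Exons before or at the start codon were lower for 36 and higher for 23 in Emx1-Cre, and lower for 27 and higher for 18 in Gad2-Cre, and exons with no early stop in either form were higher for 21 of 34 and 10 of 25.

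**Figure D4:**
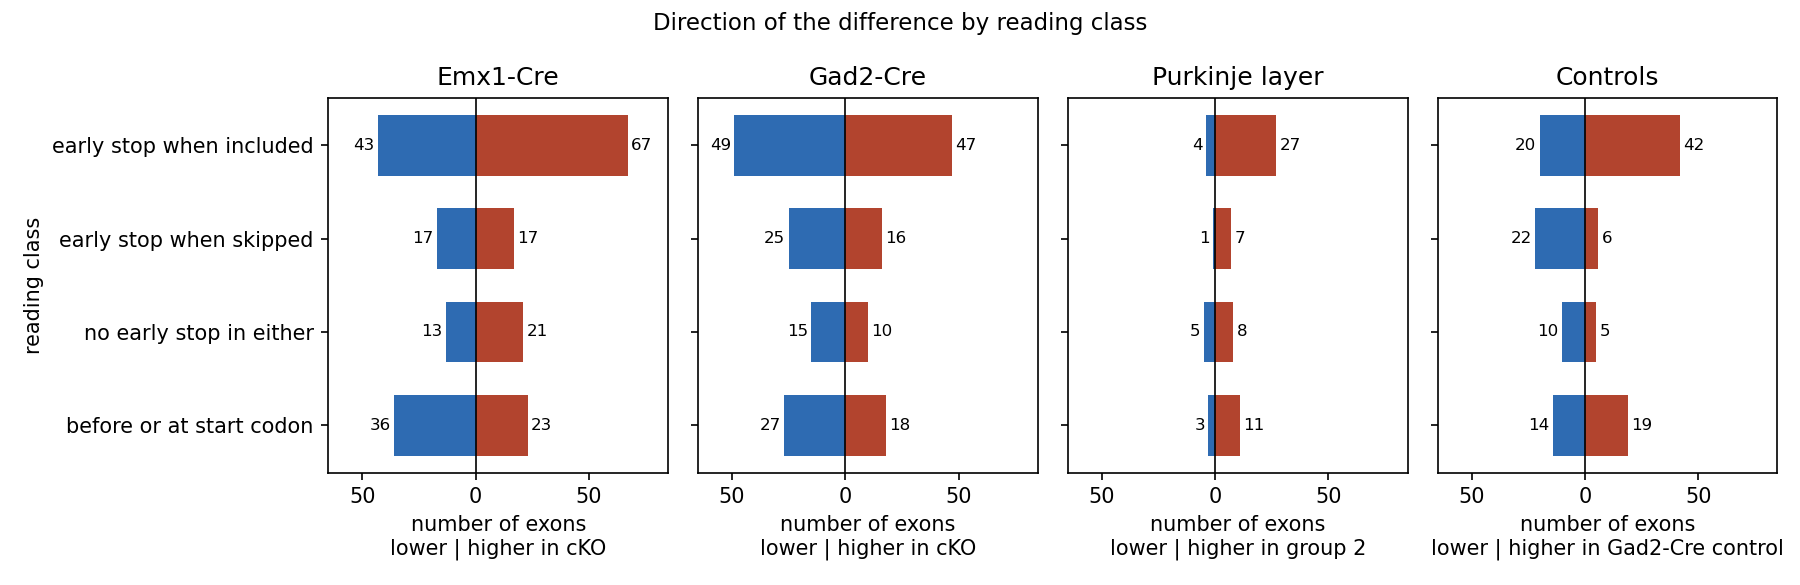
Number of exons lower (blue, to the left) and higher (red, to the right) in the second group of each table (x axis) for 4 reading classes (y axis), with the count beside each bar. The table of controls has 42 exons higher and 20 lower in Gad2-Cre among those with an early stop upon inclusion, and 6 higher and 22 lower among those with an early stop upon skipping.

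Functional groups were counted by genes with at least 1 exon of the set, by the direction of the largest difference. Over all genes of the set, 115 were higher and 107 (48.2%) lower in Emx1-Cre cKO, and 81 higher and 122 (60.1%) lower in Gad2-Cre cKO. Counts with cassette exons of any length follow each list in the order Emx1-Cre, Gad2-Cre, and no list was tested. Of 65 glutamate synapse genes, 9 were listed in Emx1-Cre, 6 higher and 3 lower in cKO, and 8 in Gad2-Cre, 6 higher and 2 lower. With any cassette exon, 11 were higher and 3 lower, and 10 higher and 3 lower. Of 118 genes of the cytoskeleton and its motors, 14 were listed in Emx1-Cre, 4 higher and 10 lower, and 11 in Gad2-Cre, 4 higher and 7 lower, where Tpm1, a tropomyosin, rose from 0.108 to 0.509 at 79 nt and Dclk2, a doublecortin kinase, fell from 0.159 to 0.0385 at 110 nt. With any cassette exon, 9 of these genes were higher and 21 lower, and 9 higher and 15 lower. The Dclk2 exon overlaps a 48-nt frame-keeping exon that fell from 0.268 to 0.0687 in Gad2-Cre. RNA-binding and splicing proteins had 9 of 128 genes in Emx1-Cre, 4 higher and 5 lower, and 12 in Gad2-Cre, 5 higher and 7 lower (any cassette exon: 8 higher and 7 lower, 7 higher and 8 lower). Chromatin and transcription had 8 of 134, 3 higher and 5 lower, and 9, 3 higher and 6 lower (any: 7 and 12, 7 and 15). Ion channels and transporters had 7 of 92, 5 higher and 2 lower, and 8, 4 higher and 4 lower (any: 9 and 5, 5 and 8).

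Synaptic and neuronal adhesion had 7 of 79 genes in Emx1-Cre, 3 higher and 4 lower, and 8 in Gad2-Cre, 3 higher and 5 lower (any cassette exon: 6 higher and 12 lower, 7 higher and 9 lower). Chl1, a cell adhesion molecule of the L1 family, fell at 62 nt from 0.778 to 0.452 and from 0.871 to 0.488. Its overlapping 162-nt frame-keeping exon fell from 0.886 to 0.653 and from 0.932 to 0.696. Inhibitory synapse genes had 1 of 35 in Emx1-Cre, Glra2, and 2 in Gad2-Cre, Glra2 and Gad1, all higher (any: 3 and 1, 4 and 1). Of 122 regulators of small GTPases, 2 were listed in Emx1-Cre, 1 in each direction, and 4 in Gad2-Cre, all lower, among them Arhgef10l from 0.800 to 0.464 at 107 nt (any: 9 and 7, 1 and 14). The Arhgef10l exon overlaps a 117-nt frame-keeping exon that fell from 0.879 to 0.612 in Gad2-Cre. Agrn, an organiser of receptor clusters at synapses, fell at 80 nt from 0.349 to 0.103 in Emx1-Cre and from 0.493 to 0.168 in Gad2-Cre, with a stop inside the exon, beside a 33-nt frame-keeping exon that fell from 0.388 to 0.150 and from 0.542 to 0.240. Of 48 genes known as NOVA targets from earlier work, 12 held an exon of the set in each cortical table, 6 higher and 6 lower in Emx1-Cre and 7 higher and 5 lower in Gad2-Cre (any: 14 and 17, 11 and 13). Of 17 factors of nonsense-mediated decay, 0 were listed in Emx1-Cre and 1, Rnps1, in Gad2-Cre.

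The cell types named by the labels could not be checked by expression, since the tables hold splicing only. Of 39 marker genes of other cell types, such as glia and blood vessels, 1 had an exon of the set: Slc1a2, the glutamate transporter best known from astrocytes and also transcribed in neurons, rose in Emx1-Cre from 0.0594 to 0.309 at a 71-nt exon that holds a stop codon and changes the C-terminus. A 214-nt exon of the same gene rose from 0.0329 to 0.172. The part of other cells in these differences was not tested.

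The Purkinje layer table held 90 exons of the set, of which 22 (24.4%) were lower in group 2, beside 29.8% of all 262 cassette exons. The sources used here do not name which group is control, so the groups are called 1 and 2 and no direction is given for the knockout. The median size was 0.186, against 0.183 for all cassette exons, and 3 exons reached 0.5, a size reached by 3.82% of all. Syt7, a calcium sensor of vesicle release, went from 0.346 in group 1 to 0.940 in group 2 at an 88-nt exon whose inclusion form reads 200 of 526 amino acids. Arhgap26, an inactivator of small GTPases, went from 0.0235 to 0.545 at a 91-nt decay exon. Its overlapping 276-nt frame-keeping exon went from 0.0585 to 0.743. Grm7, a metabotropic glutamate receptor, went from 0.737 to 0.313 at a 92-nt exon that separates forms of 922 and 915 amino acids.

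Other exons of the Purkinje layer table included Acin1, a protein bound to spliced RNA, from 0.256 to 0.656 at 104 nt, where skipping leaves 40 of 647 amino acids. Rbm25, a splicing regulator, went from 0.0877 to 0.368 at a 62-nt exon with a stop inside, and H2afy, which encodes the histone variant macroH2A1, from 0.574 to 0.316 at a 100-nt exon of a mutually exclusive pair. A group 1 level under 0.05 was listed for 4 exons, among them those of Slc4a10, Zfp280d and Arhgap26 (2.67% of all cassette exons), and one over 0.95 for 1 exon, in Epb4.1l3, a membrane skeleton protein (2.29% of all). Exons with a stop upon inclusion were higher in group 2 for 27 of 31 (87.1%) and those with a stop upon skipping for 7 of 8 (87.5%), where 70.2% of all cassette exons were higher. Among free exons these counts were 9 of 10 and 7 of 7. Of all 53 exons of the set read in frame, 18.9% were lower in group 2.

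Of these 90 exons, 22 were also in the Emx1-Cre table, 24.4% of the Purkinje layer list and 6.79% of the Emx1-Cre list, and the sign of group 2 minus group 1 was the same for 21 of them. The sizes had medians of 0.490 in Emx1-Cre and 0.178 in the Purkinje layer. Map4 went from 0.451 to 0.678 and Ank2 from 0.650 to 0.806 in the Purkinje layer, and both rose from 0.422 and 0.257 in the Emx1-Cre table. Grin1, the obligatory NMDA receptor subunit, went from 0.219 to 0.107 at 91 nt, and from 0.875 to 0.392 in Emx1-Cre. An overlapping 111-nt frame-keeping exon of Grin1 went from 0.288 to 0.134, and from 0.911 to 0.478 in Emx1-Cre. Acin1 was the exception, from 0.579 to 0.418 in Emx1-Cre. Gad2-Cre and the Purkinje layer shared 17 exons (5.90% and 18.9% of their lists), 16 had the same sign, and Bnip2 differed, from 0.303 to 0.111 in Gad2-Cre and from 0.174 to 0.285 in the Purkinje layer. Age, dissection and cell type all differ between the cortical and the cerebellar samples and cannot be told apart.

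Between the controls of the cortical lines, 210 exons of the set differed, 114 higher and 96 (45.7%) lower in Gad2-Cre, beside 39.5% of all 526 cassette exons lower. Of the 89 free exons, 56.2% were lower. The median size was 0.187, against 0.203 for all, and 3 exons reached 0.5, a size reached by 2.47% of all. Qk, an RNA-binding protein of the STAR family, was at 0.605 in Emx1-Cre and 0.0708 in Gad2-Cre at a 119-nt exon that reads 319 rather than 341 amino acids. Flna, an actin crosslinker, was at 0.462 and 0.860 at 55 nt, next to a 57-nt exon at 0.556 and 0.906. Pam, which amidates neuropeptides, was at 0.480 and 0.947 at 89 nt, next to a 318-nt frame-keeping exon at 0.638 and 0.967. Cacna1d, an L-type calcium channel, was at 0.608 and 0.253 at a 104-nt coding exon that reads 411 of 2144 amino acids when joined to both neighbours. Control levels under 0.05 in Emx1-Cre were listed for 3 exons and over 0.95 for 7, where 1.9% of all cassette exons met each limit.

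Exons with the stop in the inclusion form were higher in Gad2-Cre controls for 42 (67.7%) and lower for 20, where 60.5% of all cassette exons were higher. Those with the stop in the skipping form were higher for 6 and lower for 22 (78.6%), where 39.5% of all were lower. Of all 108 exons of the set read in frame, 50.9% were lower. Among free exons, 18 of 24 stopping upon inclusion and 0 of 17 stopping upon skipping were higher in Gad2-Cre. Coding exons among the latter included Guf1, a mitochondrial translation factor, at 0.805 in Emx1-Cre and 0.394 in Gad2-Cre at 140 nt, Polh, a DNA polymerase, at 0.618 and 0.286 at 215 nt, and Trit1, a tRNA-modifying enzyme, at 0.564 and 0.305 at 110 nt. On the inclusion side, Lmbr1 was at 0.0439 and 0.236 at 199 nt and Stard3, a cholesterol-binding protein of endosomes, at 0.0207 and 0.139 at 163 nt. Depth per library and RNA quality are not in these tables, and their part in this count was not tested.

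The table of controls shares its samples with both cKO tables, so its values stand beside theirs without a count of agreement. Evl, an actin regulator, was at 0.221 in Emx1-Cre and 0.610 in Gad2-Cre controls at 101 nt, and at 0.0861 and 0.374 in the respective cKO. Uggt2, which checks glycoprotein folding, was at 0.860 and 0.356 in the controls at 152 nt, and at 0.657 in Gad2-Cre cKO. Tpm1 was at 0.282 and 0.108 in the controls, and at 0.569 and 0.509 in cKO. Celf1, a splicing regulator, was at 0.663 and 0.308 in the controls at a 65-nt exon after the stop codon, and at 0.494 in Gad2-Cre cKO.

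Listing in 1 table applied to 518 exons, in 2 to 152, in 3 to 26 and in all 4 to 3. Ncdn, which encodes neurochondrin, was listed in all 4 at a 70-nt exon that holds the start codon. It rose from 0.220 to 0.858 in Emx1-Cre and from 0.391 to 0.683 in Gad2-Cre, and went from 0.178 to 0.342 in the Purkinje layer. Ptprs, a receptor phosphatase of axons, rose at 59 nt from 0.183 to 0.453 and from 0.0699 to 0.175, and went from 0.186 to 0.372 in the Purkinje layer. The third, of 9955 nt, lies in the non-coding gene Meg3, has no frame, fell from 0.383 to 0.0965 and from 0.580 to 0.159 and went from 0.852 to 0.721 in the Purkinje layer. Among the exons in 3 tables, Smarce1 at 173 nt was higher in the second group of all 3, including 0.267 and 0.565 in the Purkinje layer, and Idh3b, a subunit of a Krebs cycle enzyme, was lower in all 3, from 0.926 to 0.665, from 0.926 to 0.752 and from 0.897 to 0.653. The Idh3b exon overlaps a 171-nt frame-keeping exon that fell from 0.926 to 0.669 in Emx1-Cre.

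YCAY tetramers on the transcribed strand were counted in the exons alone, with overlapping matches counted. In Emx1-Cre the median was 1.66 per 100 nt in 134 exons higher in cKO and 1.38 in 124 lower, and in Gad2-Cre it was 1.77 in 100 higher and 1.41 in 127 lower. The quartiles overlapped widely, from 0.727 to 2.81 for the higher and from 0.711 to 2.20 for the lower exons in Emx1-Cre. Frame-keeping exons had medians of 1.85 and 1.39 in Emx1-Cre and 1.96 and 1.23 in Gad2-Cre, so the same order stood in exons of either frame. For the Purkinje layer the medians were 1.55 and 1.75 for exons higher and lower in group 2, the latter over 17 exons, and for the controls 1.61 and 1.53. At least 1 tetramer was held by 77.6% of the higher and 79.0% of the lower exons in Emx1-Cre, and by 83.0% and 75.6% in Gad2-Cre. As picked examples, Grik2, with 10 tetramers in 139 nt, and Rab12, with 9 in 190 nt, both rose in cKO in both cortical tables. Against these stand Plekha5, with 3 in 134 nt, which fell in both, and Dlg3, with 1 in 100 nt, which rose in both. Overlapping exons share their tetramers, and no test was made.

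The lower limit of 52 nt had neighbours on either side. Just inside it, at 52 and 53 nt, were exons of Adgrl3, Cltb, Surf1, Dnajb5, Prrc2c, Rbfox1, Scg3, Snhg14 and Vav2, as in Dnajb5, which fell from 0.680 to 0.0758 in Emx1-Cre at 53 nt. Just outside, at 49 and 50 nt, were exons of Bzrap1, from 0.834 to 0.352 in Emx1-Cre and from 1 to 0.347 in Gad2-Cre at 49 nt, and of Nav3, from 0.417 to 0.262 and from 0.427 to 0.201 at 50 nt.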

How the data were processed

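The deposited tables hold, per the file headers, a pooled inclusion level per group (a fraction), their difference (a score), a coverage signal for each event, and the authors' p-value and FDR. Per the labels the tables were made with Quantas on mm10, and the submitters' processing notes also name kallisto and edgeR, with a role not given in the sources used here. How coverage and the p-value were computed is also not stated there, and no depth per library is known. Levels of cassette exons were read from the tables and exon lengths from the 3-block inclusion isoform of the matching deposited interval lists, with pandas 2.3.3 in Python 3.11.15. An exon with several events took the event with the highest coverage, and pairs of tables were compared at the same event. Exons were matched to GENCODE M21 transcripts (mm10), which also gave the sequences, and both forms were translated by a routine tested on simulated data. No genome was used, so intronic motifs, planned at 200 nt of each flank, were not counted. No test was added to the authors' own. Some results are not reported here. Named exons were the 8 largest rises and falls per table (1 per gene), cortical exons under 0.05 in control reaching 0.3 or over 0.95 falling to 0.7, exons in 3 or 4 tables, and up to 3 per gene list and table; others were chosen after their values were seen. Sequences were the first 12 of these by size of difference, up to 300 nt, off chromosome 18 and outside UTRs, 1 per region. The exons, lists and counts were chosen with earlier results of these data known.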

Additional observations from a re-analysis of the deposited data

How the results depend on the processing

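Of 50 alternative values, 38 stayed within the main share's 95% binomial interval or within 1.5 times the main count, and 12 did not. That interval treats exons as independent although many overlap, and most alternatives are subsets of the same exons. Staying inside it is therefore a weak check, and a share past 50% could still count among the 38. Across the alternatives the share lower in cKO ran from 42.9% to 51.9% in Emx1-Cre and from 55.7% to 65.1% in Gad2-Cre. The Emx1-Cre majority is not fixed: it turned to lower at a difference of at least 0.2 (51.9%), a coverage of at least 50 (51.1%) and an FDR of 0.01 (50.6%). Among exons read in frame 50.9% were lower in Gad2-Cre controls, also past 50%. Restricting the Emx1-Cre table to the 184 exons read in frame gave 42.9%. The share with the same direction in both cortical tables became 100% at a difference of at least 0.2 (69 exons), 100% at an FDR of 0.01 (81 exons) and 100% for exons with no tandem, mutually exclusive or overlapping frame-keeping event (25 exons), a restriction under which the share lower in group 2 of the Purkinje layer was 14.6% (41 exons) and the share lower in Gad2-Cre controls 56.2% (89 exons), the other side of 50%. The restrictions to these exons, to exons read in frame and to 1 exon per overlapping group were chosen after seeing the data. At a coverage of at least 50, control levels under 0.05 were left for 7 Emx1-Cre and 4 Gad2-Cre exons and levels over 0.95 for 3 and 3. With a match of either end, 343 exons were coding and 76 not annotated. No paired analysis was possible because the tables hold 1 pooled level per group and no value per library, and for the same reason no sample could be left out. The planned count in 100 nt of each flanking intron was not run, since no genome was used. Low coverage limits the exons near 0 and 1 most.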
